A study of Homo sapiens with 12 samples.

Results

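Mediator and Integrator are multi-subunit complexes that work with RNA polymerase II, and the genes of their subunits were followed here by the RNA that the cells were making during a short labelling pulse. The members were the genes of the count table whose symbol is MED followed by a number, with or without a closing L, or INTS followed by a number alone, together with CDK8, CDK19 and CCNC, and the rule used no measured value. It found 48 genes among the 23434 of the table, 33 of them in Mediator and 15 in Integrator. The libraries came from U2OS cells, a human osteosarcoma line, that carried MycER, a MYC protein fused to an oestrogen receptor domain and switched on by OHT (4-hydroxytamoxifen). Cells were infected with a virus expressing a non-targeting hairpin (shNT) or a hairpin against CDK12 (shCDK12), and hairpins were induced in all cells with 1 µg/mL doxycycline. Within each hairpin, cells had no OHT (shNT, shCDK12) or 300 nM OHT for 40 h (shNT_OHT, shCDK12_OHT), with 3 libraries in each of the 4 groups. All groups also shared an arrest in 100 ng/mL nocodazole for 8 h, collection of the arrested cells by shake-off, release for 12 h, and 0.5 mM 5-ethynyl-uridine (EU) over the last 2 h. EU-labelled RNA was pulled down and sequenced (EU-seq) from 40 µg of RNA of these cells, to which 10 µg of RNA from mouse cells had been added. The labels do not say whether the 3 libraries of a group came from separate cultures, so p-values measure the spread between these libraries, which may be technical, and they name 1 hairpin against CDK12 without saying whether the cells were a clone.

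Mediator carries signals from DNA-bound transcription factors to RNA polymerase II at promoters. Its head, middle and tail modules are held together by the scaffold MED14, and a detachable kinase module of CDK8 or CDK19, cyclin C, MED12 or MED12L and MED13 or MED13L can bind the core and block its contact with the polymerase. Integrator acts on polymerase soon after it leaves the promoter, where its cleavage module INTS4-INTS9-INTS11 cuts the new transcript and a bound phosphatase removes phosphates from the polymerase tail, and it also makes the ends of small nuclear RNAs. CDK12 is a kinase of the same polymerase tail that supports elongation, and MYC is a transcription factor that binds the E-box letters CACGTG.

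The 12 libraries held 1251695 to 10447836 counts, an 8.35-fold range, and 0.330 to 0.369% of the counts lay in the members. Newly made RNA of the hairpin target was not called different between the hairpins without OHT. CDK12 was at 304 ± 17.4 CPM (counts scaled to a library of 1e6, SD, n = 3) in shNT and 289 ± 10.9 in shCDK12, a difference of -0.08 on the log2 scale (edgeR adjusted p = 0.447), but at 397 ± 38.7 in shNT_OHT and 214 ± 5.09 in shCDK12_OHT, a log2 fold change of -0.88 (edgeR adjusted p = 0.00011). These values are of RNA labelled over the last 2 h. The total RNA and the protein of CDK12 were not measured in these libraries, so whether CDK12 was silenced cannot be told from them. Each direction below that rests on the hairpin is a difference between libraries labelled shCDK12 and libraries labelled shNT. Of 7 markers expected in U2OS cells, VIM, SPARC, RUNX2, CAV1 and CDH2 were detected in every library, whereas TWIST1 (2 counts over all libraries) and COL1A2 (19 counts) were near 0. These markers moved with the groups, CAV1 from 238 ± 38.9 CPM in shNT to 29.6 ± 0.686 in shCDK12 and RUNX2 from 218 ± 26.1 to 61.1 ± 3.32. Of 6 markers of other cell types, PTPRC, CDH5, PECAM1 and ALB stayed under 1.4 CPM in every library, while EPCAM was at 0.820 ± 0.884 CPM in shNT and 8.03 ± 1.45 in shCDK12, and CDH1 lay between 3.99 and 12.2. Among replicates, shNT_OHT replicate 1 stood furthest apart, with a chi-square per degree of freedom of 8.57 and 9.31 against the other shNT_OHT libraries. Those differed from each other by 3.80. In shCDK12, replicate 2 differed from replicates 1 and 3 by 6.88 and 4.80, and these from each other by 3.27. Pairs within shNT and within shCDK12_OHT lay between 2.69 and 3.32.

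Levels below are CPM scaled by TMM, a trimmed mean of ratios between libraries, over all 12 libraries, and are not divided by gene length. Fold changes are on the log2 scale, and the value after ± of a fold change is an approximate standard error. It is the size of the fold change divided by the square root of its edgeR F statistic. A gene is said to have risen or fallen when its adjusted p was under 0.05 over all genes tested. A gene was tested when its mean normalised count over the libraries of a comparison was above 32, which left out MED30 and MED31 for shNT_OHT against shNT and MED31 for every other comparison except shCDK12_OHT against shCDK12. No mouse counts are in the table, so each value is a share of the newly made RNA and a change in its total amount cannot be seen. In bulk libraries, fewer labelled cells and less new RNA per cell cannot be told apart.

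OHT in shNT cells changed 7 of the 46 members tested (15.2%, where 17.3% of all genes tested passed). MED26 and MED9 rose (2 of 46, where 9.05% of all genes rose), while INTS8, CDK19, CCNC, MED23 and MED13 fell (5 of 46, where 8.29% fell). None of the 7 calls held without each library in turn. Leaving out shNT replicate 1, 2 or 3 left 2, 1 and 0 called members, and leaving out shNT_OHT replicate 1, 2 or 3 left 9, 12 and 2. DESeq2 called 4 higher and 4 lower where edgeR called 2 higher and 5 lower. Shares of all genes called in these alternative fits are not given here, so their counts are no result about the members.

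Without OHT, 23 of 47 members differed between shCDK12 and shNT (48.9%, against 62% of all genes tested), 9 higher and 14 lower (all genes 29.6% higher and 32.4% lower). MED26, MED12L and INTS9 rose most, and MED22, MED8 and MED7 fell most. With OHT, 14 of 47 members differed between shCDK12_OHT and shNT_OHT (29.8%, against 45.4% of all genes), 8 higher and 6 lower (all genes 23.8% higher and 21.6% lower). DESeq2 called 6 higher and 7 lower. INTS9, CCNC and MED4 rose most, and MED11, MED8 and INTS6 fell most. In these fits members differed by hairpin in a smaller share than genes at large in both comparisons, and no test of that gap was made. The counts of called members moved with the processing, as given in the last section.

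Within shCDK12 cells, OHT changed 18 of 48 members (37.5%, against 48.9% of all genes), 13 higher and 5 lower (all genes 27.5% higher and 21.5% lower). MED22, CDK19 and MED20 rose most, and MED26, MED12L and INTS6 fell most. The difference between the OHT responses of the 2 hairpins, tested as an interaction over all 12 libraries, passed for 22 of 47 members (46.8%, against 45.2% of all genes), 14 with a higher response in shCDK12 and 8 with a lower one (all genes 25.6% higher and 19.6% lower). CDK19, INTS8 and CCNC had the highest interactions and MED26, MED12L and INTS10 the lowest. The OHT responses in the 2 backgrounds, which share no library, had opposite signs in 32 of 46 members (69.6%), close to the 71.1% of 10233 genes.

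Median log2 fold changes of the members were -0.09 for shNT_OHT against shNT (all genes -0.03), -0.09 for shCDK12 against shNT (-0.03), 0.02 for shCDK12_OHT against shNT_OHT (0.05), 0.08 for shCDK12_OHT against shCDK12 (0.05) and 0.22 for the interaction (0.10). The complexes did not move as a block in any comparison. Across the 5 comparisons, which share libraries, CDK19 passed in 5 and 14 members passed in none with edgeR. Of these 14, DESeq2 called INTS5 and MED6 in 1 each. The same count was not made over all genes, so it is no result about the members.

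**Figure D1:**
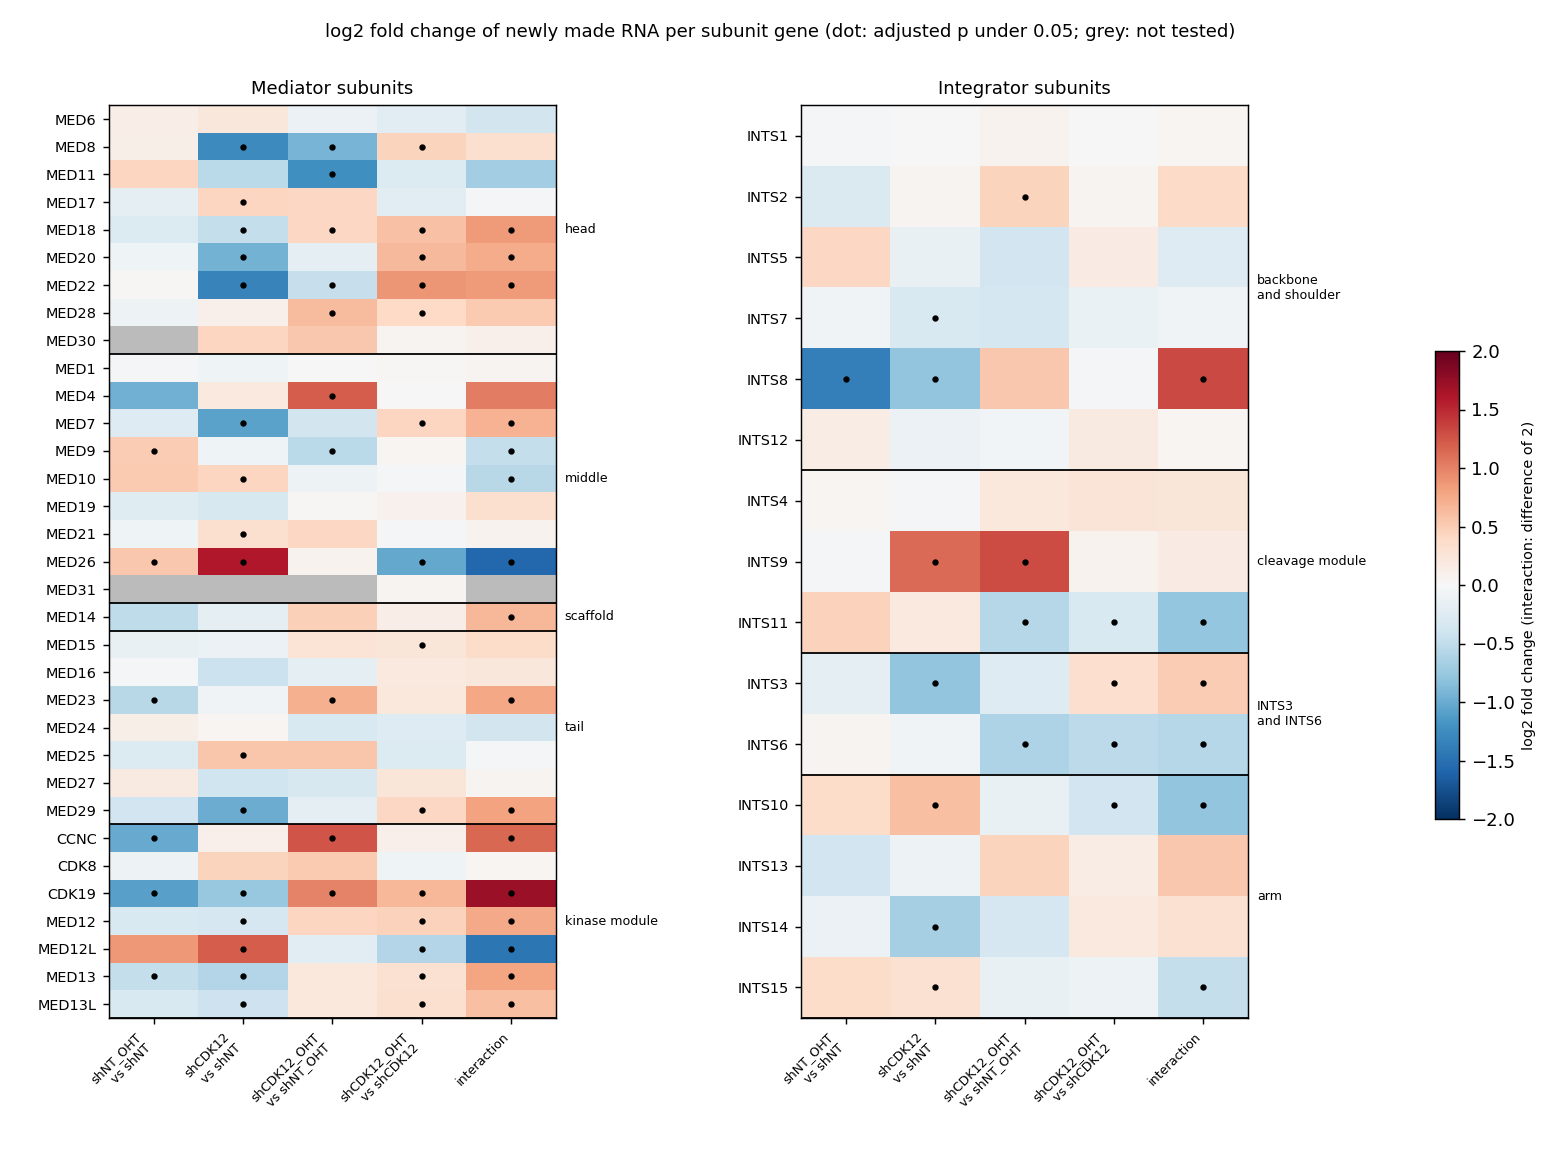
Log2 fold change of each of the 48 members (vertical axis, grouped by module) in the 5 comparisons (horizontal axis), with colour for the size and direction and a dot for an adjusted p under 0.05, and grey where a member was not tested. MED26 is the member with the highest value for shCDK12 against shNT (1.61) and the lowest for the interaction (-1.56), and CDK19 has the highest interaction (1.73).

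**Figure D2:**
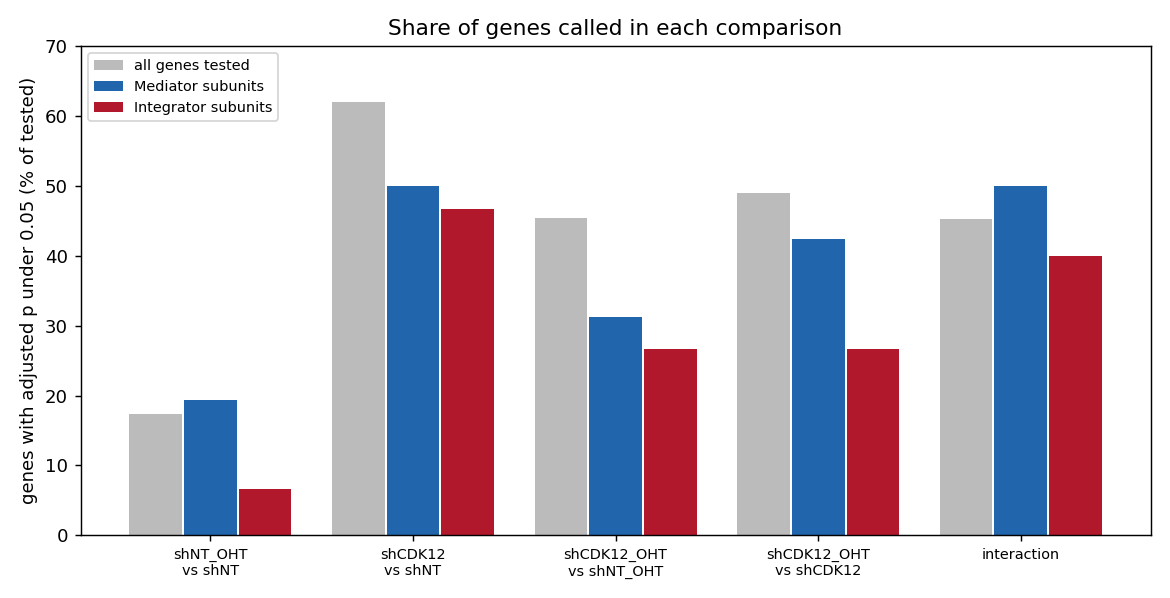
Percent of genes with an adjusted p under 0.05 (vertical axis, from 0) in each comparison, for all genes tested, Mediator members and Integrator members. Mediator stood at 19.4, 50, 31.3, 42.4 and 50% in the order drawn and Integrator at 6.67, 46.7, 26.7, 26.7 and 40%.

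In the kinase module the OHT response differed between the hairpins for 6 of 7 genes (45.2% of all genes), 5 with a higher response in shCDK12 (CDK19, CCNC, MED13, MED12 and MED13L, where 25.6% of all genes were higher) and MED12L with a lower one. OHT in shNT lowered CDK19, CCNC and MED13 (3 of 7, all genes 8.29%). In shCDK12 cells OHT raised CDK19, MED12, MED13 and MED13L (4 of 7, all genes 27.5%) and lowered MED12L. These shares over so few genes were not tested. CDK8 passed in none of the 5 comparisons with edgeR or DESeq2, and its unadjusted edgeR value was under 0.05 only for shCDK12 against shNT.

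CDK8 and CDK19 are the alternative kinases of the module, and the bases before their starts are shown because CDK19 passed in all 5 comparisons and CDK8 in none, a contrast that some alternatives given below narrow. Beside them stand MED13L, which also holds an E-box, among the 6 of 7 kinase module genes with a window (MED13 had none), and MED26, the member with the largest log2 fold change between 2 groups. Each is the 250 bases before the annotated start, 5′ to 3′ on the gene's strand, from RefSeq on GRCh38.p14, and capitals mark CACGTG.
CDK8, chr13:26253879-26254128, plus strand: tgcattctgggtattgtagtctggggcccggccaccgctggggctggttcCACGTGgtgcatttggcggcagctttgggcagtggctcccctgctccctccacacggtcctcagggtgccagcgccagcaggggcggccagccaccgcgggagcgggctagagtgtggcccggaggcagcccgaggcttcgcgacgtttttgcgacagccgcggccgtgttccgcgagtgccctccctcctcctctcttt
CDK19, chr6:110815856-110816105, minus strand: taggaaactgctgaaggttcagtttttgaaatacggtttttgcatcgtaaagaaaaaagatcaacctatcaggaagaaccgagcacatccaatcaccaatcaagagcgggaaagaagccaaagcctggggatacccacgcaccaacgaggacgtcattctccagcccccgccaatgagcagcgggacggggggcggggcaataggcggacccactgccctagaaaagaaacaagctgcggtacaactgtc
MED13L, chr12:116277694-116277943, minus strand: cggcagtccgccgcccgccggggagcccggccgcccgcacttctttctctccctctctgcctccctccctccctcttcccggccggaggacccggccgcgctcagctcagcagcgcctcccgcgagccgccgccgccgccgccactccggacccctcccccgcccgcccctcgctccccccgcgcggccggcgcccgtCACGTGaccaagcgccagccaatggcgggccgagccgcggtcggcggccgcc
MED26, chr19:16628205-16628454, minus strand: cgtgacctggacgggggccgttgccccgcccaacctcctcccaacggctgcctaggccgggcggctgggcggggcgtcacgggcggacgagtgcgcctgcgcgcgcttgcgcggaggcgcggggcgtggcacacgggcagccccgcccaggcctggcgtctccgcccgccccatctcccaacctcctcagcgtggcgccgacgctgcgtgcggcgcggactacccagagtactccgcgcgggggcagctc

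The capitals begin 200 bases before the start of CDK8 and 52 bases before that of MED13L, and the windows of CDK19 and MED26 hold neither CACGTG nor the related letters CACGCG on either strand. G and C made up 68.8% of these 250 bases in CDK8, 52% in CDK19, 81.2% in MED13L and 78% in MED26. Windows of 300 bases, 250 before and 50 after the start, were matched for 36 of the 48 members. CACGTG lay in 3 of them (CDK8, MED13L and INTS6, 8.33%), against 7.26% of all windows and 10.3% of the windows of genes with a mean above 5 CPM. CACGCG, searched on both strands as well, lay in 5 (MED4, MED25, INTS2, INTS6 and INTS13, 13.9%), against 11.4% and 18.6%. With OHT in shNT, the log2 fold changes of CDK8, MED13L and INTS6 were -0.11, -0.30 and 0.05 (edgeR adjusted p = 0.870, 0.0835 and 0.871).

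CDK8 was at 21.1, 20.5 and 10.5 CPM in shNT, 8.77, 18.1 and 23.2 in shNT_OHT, 21.1, 25.2 and 28.1 in shCDK12 and 23.8, 23.5 and 23.0 in shCDK12_OHT. Its groups overlapped in all 4 pairs, but narrowly between the hairpins. Without OHT the overlap was 21.081 CPM in shNT replicate 1 against 21.076 in shCDK12 replicate 1. With OHT it was 23.2 in shNT_OHT replicate 3 against 23.0 in shCDK12_OHT replicate 3. The log2 fold changes of CDK8 ran from -0.11 ± 0.36 (shNT_OHT against shNT, edgeR adjusted p = 0.870) to 0.52 ± 0.29 (shCDK12_OHT against shNT_OHT, edgeR adjusted p = 0.166). The last was called without shNT_OHT replicate 3 (0.97). In shCDK12 against shNT CDK8 had 0.45 ± 0.21 (edgeR adjusted p = 0.0642) and was called in 5 of 12 alternatives, with upper-quartile scaling, the replicate block or the length trend removed and without shNT replicate 1 or shCDK12 replicate 1 (up to 0.58). CDK19 stood at 27.9, 28.1 and 25.1 CPM in shNT and 10.0, 9.90 and 17.4 in shNT_OHT, at 13.0, 17.6 and 17.0 in shCDK12 and 27.3, 24.1 and 25.0 in shCDK12_OHT. The levels without OHT in shNT and with OHT in shCDK12 were alike and high, and the other groups were low without overlap. CDK19 fell by 1.08 ± 0.28 on the log2 scale with OHT in shNT (edgeR adjusted p = 0.0178) and by 0.76 ± 0.19 in shCDK12 against shNT (0.00123). It rose by 0.66 ± 0.15 with OHT in shCDK12 (edgeR adjusted p = 0.00154), and the interaction was 1.73 ± 0.30 (0.000116). The fall in shNT lost its call without any one of the shNT libraries (edgeR adjusted p up to 0.0831) and with the length trend removed. CDK19 overlaps AMD1, which had 12562 counts over all libraries against 1325 for CDK19 and went the other way in shCDK12 against shNT (log2 fold change 1.36) and in the interaction (-1.16). Whether counting used strand is not stated for the table, so reads of overlapping genes cannot be told apart, and their part in the values was not tested.

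CCNC, which encodes cyclin C, the partner of both kinases, was at 30.2, 36.1 and 29.6 CPM in shNT and 10.97, 20.6 and 18.0 in shNT_OHT. With the CDK12 hairpin it was at 21.5, 48.8 and 31.1 without OHT and 40.6, 36.4 and 35.6 with OHT. The shNT_OHT libraries were below all others, with shCDK12 replicate 1 next to them. CCNC fell by 1.01 ± 0.27 with OHT in shNT (edgeR adjusted p = 0.0195), a call lost without any one shNT library (up to 0.118), and was 1.26 ± 0.23 higher in shCDK12_OHT than in shNT_OHT (edgeR adjusted p = 0.00128). The interaction was 1.15 ± 0.35 (edgeR adjusted p = 0.0124).

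MED12 and MED13 tie the kinase to the core, and MED12L and MED13L are their paralogs. Reads of shared sequence could be split between the pairs, which was not tested. MED13 was at 353, 355 and 356 CPM in shNT, 223, 299 and 246 in shNT_OHT, 217, 264 and 223 in shCDK12 and 299, 280.2 and 294 in shCDK12_OHT. MED13L was at 322, 311 and 316 in shNT, 243, 251 and 280.1 in shNT_OHT, 250.4, 226 and 236 in shCDK12 and 292, 285 and 308 in shCDK12_OHT. In both genes every shNT library lay above every library of the other 3 groups. MED13 fell by 0.59 ± 0.09 and MED13L by 0.42 ± 0.08 in shCDK12 against shNT (edgeR adjusted p = 2.64e-06 and 0.000117), and OHT then raised them by 0.31 ± 0.08 and 0.32 ± 0.08 within shCDK12 (0.00559 and 0.00212). With OHT in shNT, MED13 fell by 0.48 ± 0.13 (edgeR adjusted p = 0.0173), a call lost without any one shNT library or shNT_OHT replicate 3 (up to 0.0795), and MED13L had a log2 fold change of -0.30 ± 0.11 (0.0835). Both interactions passed, at 0.79 ± 0.15 for MED13 and 0.61 ± 0.13 for MED13L (edgeR adjusted p = 0.000288 and 0.000751). MED13L lost both this call and that of its rise with OHT in shCDK12 when a trend of fold change with gene length was removed (log2 values of 0.15 and 0.14, edgeR adjusted p = 0.352 and 0.133) and in the first of 2 draws that thinned every library to the smallest. MED13 lost its call with OHT in shNT when the trend was removed (edgeR adjusted p = 0.116).

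MED12 was at 76.6, 88.0 and 64.7 CPM in shNT, 85.8, 50.3 and 49.0 in shNT_OHT, 69.3, 56.0 and 59.0 in shCDK12 and 86.3, 79.0 and 86.7 in shCDK12_OHT. Every shCDK12_OHT library was above every shCDK12 library, and the other pairs of groups overlapped. MED12 rose by 0.46 ± 0.10 with OHT in shCDK12 (edgeR adjusted p = 0.00115) and its interaction was 0.75 ± 0.25 (0.0176), a call lost without shNT replicate 2, shNT_OHT replicate 3 or shCDK12 replicate 2 (edgeR adjusted p up to 0.0651). The fall of 0.34 ± 0.13 in shCDK12 against shNT (edgeR adjusted p = 0.0254) was lost without shNT replicate 1 or 2 or shCDK12 replicate 2 or 3 (up to 0.23). That fall was also lost with DESeq2, with thinning and in the fit of all 12 libraries.

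MED12L went the other way. It was at 7.96, 15.8 and 14.0 CPM in shNT, 19.7, 23.9 and 25.2 in shNT_OHT, 24.8, 33.9 and 27.0 in shCDK12 and 20.1, 17.7 and 20.3 in shCDK12_OHT. The shNT libraries were the lowest and did not overlap any other group. MED12L had a log2 fold change of 0.87 ± 0.31 with OHT in shNT (edgeR adjusted p = 0.0644). That change was called in 5 of 12 alternatives. MED12L rose by 1.21 ± 0.23 in shCDK12 against shNT (edgeR adjusted p = 5.66e-05), fell by 0.59 ± 0.15 with OHT in shCDK12 (0.00321), and had an interaction of -1.44 ± 0.32 (0.00116). Its span holds 6 other genes of the table. Of these, IGSF10 rose in shCDK12 against shNT (1.80) and had an interaction of -1.51, and its part in the MED12L counts was not tested.

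**Figure D3:**
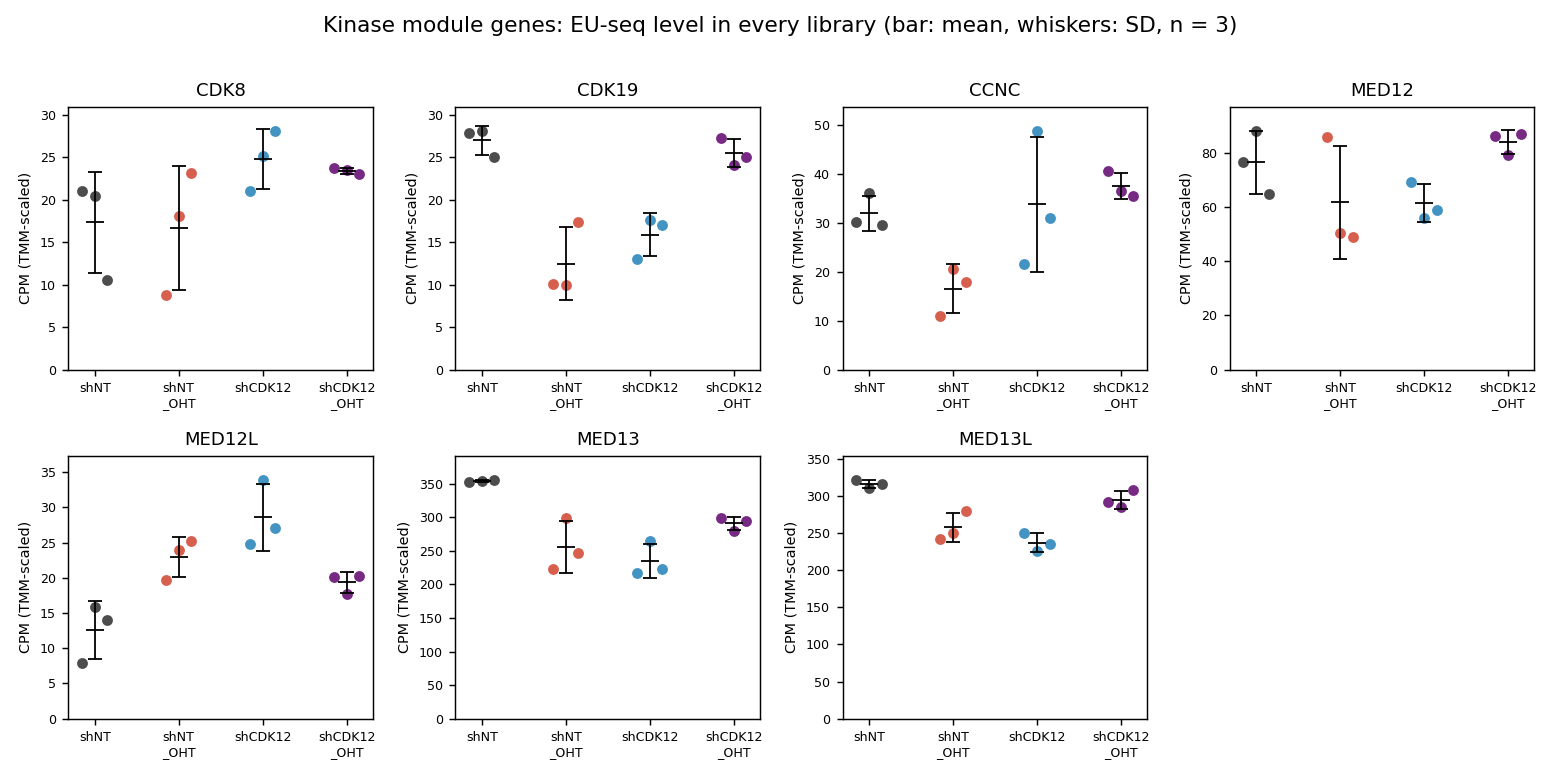
Level of the 7 kinase module genes in each library (points; vertical axis in TMM-scaled CPM from 0, groups on the horizontal axis), with the mean and SD of the 3 libraries. CDK19 is high in shNT (25.1 to 28.1) and shCDK12_OHT (24.1 to 27.3) and lower in the other groups. The CDK8 groups overlap in each of the 4 pairs compared, but narrowly between the hairpins.

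The head module touches the polymerase most directly. Of its 9 genes, 4 fell in shCDK12 against shNT (MED22, MED8, MED20 and MED18, 44.4%, all genes 32.4%) and MED17 rose, so that 55.6% passed against 62% of all genes. OHT then raised 5 within shCDK12 (MED22, MED20, MED18, MED8 and MED28, 55.6%, all genes 27.5%). In shCDK12_OHT against shNT_OHT 3 fell (MED11, MED8 and MED22, 33.3%, all genes 21.6%) and 2 rose (MED28 and MED18, 22.2%, all genes 23.8%). With OHT in shNT 0 of the 8 tested passed with edgeR or DESeq2, and 0 had an unadjusted p under 0.05.

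MED8, which carries the movable MED18-MED20 pair, was at 121, 116 and 113 CPM in shNT and 113, 126 and 141 in shNT_OHT, against 58.6, 46.3 and 40.9 in shCDK12 and 65.6, 65.2 and 66.4 in shCDK12_OHT. The hairpin groups did not overlap with or without OHT. MED8 fell by 1.28 ± 0.13 in shCDK12 against shNT (edgeR adjusted p = 3.8e-09) and by 0.93 ± 0.13 in shCDK12_OHT against shNT_OHT (0.000235), and its interaction of 0.32 ± 0.19 did not pass (0.165).

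MED22, which pairs with MED11 beside MED17, was at 96.0, 105 and 90.7 CPM in shNT and 117, 89.1 and 90.5 in shNT_OHT. The levels were 35.0, 37.9 and 43.5 in shCDK12 and 68.1, 71.8 and 74.2 in shCDK12_OHT. The shCDK12_OHT libraries thus lay between those of shCDK12 and shNT without overlap. MED22 fell by 1.33 ± 0.13 in shCDK12 against shNT (edgeR adjusted p = 1.72e-09), rose by 0.88 ± 0.11 with OHT in shCDK12 (3.12e-06), and had an interaction of 0.84 ± 0.19 (0.00112). Its fall of 0.46 ± 0.14 in shCDK12_OHT against shNT_OHT (edgeR adjusted p = 0.0205) was lost without any one shCDK12_OHT library (up to 0.0925).

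MED20 was at 183, 180.1 and 138 CPM in shNT, 151, 133 and 186 in shNT_OHT, 92.2, 80.2 and 91.0 in shCDK12 and 136, 141 and 135 in shCDK12_OHT. The shCDK12 libraries were below all others. MED20 fell by 0.95 ± 0.11 in shCDK12 against shNT (edgeR adjusted p = 3.5e-08), rose by 0.65 ± 0.09 with OHT in shCDK12 (8.98e-06), and had an interaction of 0.74 ± 0.18 (0.00254). It overlaps BYSL, which did not pass in the first 2 of these comparisons (log2 fold changes of -0.06 and -0.18) and had an interaction of -0.81. MED18, its partner, fell by 0.47 ± 0.11 and rose by 0.59 ± 0.09 in the same comparisons, with an interaction of 0.85 ± 0.18 (edgeR adjusted p = 0.000849). Its rise of 0.41 in shCDK12_OHT against shNT_OHT was lost without shNT_OHT replicate 2 or 3 or any one shCDK12_OHT library (edgeR adjusted p up to 0.138). That rise was also lost with DESeq2, upper-quartile scaling, the replicate block and thinning. Both interactions held without each library in turn.

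MED11 was lowest in the groups with the CDK12 hairpin. It was at 15.5, 14.8 and 11.5 CPM in shNT, 18.5, 21.4 and 18.0 in shNT_OHT, 9.03, 8.81 and 11.5 in shCDK12 and 7.20, 8.46 and 8.34 in shCDK12_OHT. It fell by 1.23 ± 0.23 in shCDK12_OHT against shNT_OHT (edgeR adjusted p = 0.00137), and without OHT its log2 fold change was -0.54 ± 0.24 (0.0555). MED28 rose by 0.63 ± 0.15 in shCDK12_OHT against shNT_OHT and by 0.40 ± 0.10 with OHT in shCDK12 (edgeR adjusted p = 0.00485 and 0.00247). The rise of MED17 in shCDK12 was 0.42 and was lost without shNT replicate 2 or shCDK12 replicate 2 (edgeR adjusted p up to 0.102). MED6 and MED30 passed in no comparison with edgeR, and DESeq2 called MED6 lower with OHT in shCDK12 (-0.28, adjusted p = 0.0311).

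The middle module was mixed. MED26, through which Mediator meets elongation factors, had the largest hairpin difference of the members tested. MED26 was at 109, 95.2 and 76.2 CPM in shNT, 142, 126 and 142 in shNT_OHT, 296, 268 and 306 in shCDK12 and 148, 149.7 and 128 in shCDK12_OHT. The shCDK12 libraries stood above all others, the shNT libraries below all others, and the 2 groups with OHT overlapped. It rose by 1.61 ± 0.10 (3.05-fold) in shCDK12 against shNT (edgeR adjusted p = 1.61e-12), fell by 1.02 ± 0.09 with OHT in shCDK12 (3.72e-08), and had an interaction of -1.56 ± 0.17 (5.02e-07). With OHT the hairpin groups differed by 0.07 ± 0.12 (edgeR adjusted p = 0.660). These 3 calls held under every alternative and without each library, but the rise of 0.54 ± 0.15 with OHT in shNT (edgeR adjusted p = 0.0245) was lost without shNT replicate 2 or 3 or shNT_OHT replicate 3 (up to 0.132).

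MED9 was at 119, 111 and 123 CPM in shNT, 182, 148 and 171 in shNT_OHT, 113, 103 and 117 in shCDK12 and 108, 121 and 114 in shCDK12_OHT. Only the shNT_OHT libraries were high. It rose by 0.51 ± 0.14 with OHT in shNT (edgeR adjusted p = 0.0196), a call lost without any one shNT library or shNT_OHT replicate 3 (up to 0.133), and was 0.54 ± 0.12 lower on the log2 scale in shCDK12_OHT than in shNT_OHT (a log2 fold change of -0.54, edgeR adjusted p = 0.00438). Its interaction of -0.47 ± 0.15 (edgeR adjusted p = 0.0162) was lost without shCDK12_OHT replicate 1 (0.0506).

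MED7, part of the hinge of the middle module, was at 58.8, 64.6 and 54.1 CPM in shNT, 40.4, 52.8 and 57.4 in shNT_OHT, 26.9, 32.1 and 25.0 in shCDK12 and 34.9, 42.8 and 36.6 in shCDK12_OHT. The shCDK12 libraries were below all others. MED7 fell by 1.08 ± 0.15 in shCDK12 against shNT (edgeR adjusted p = 6.57e-07). The rise of 0.44 ± 0.14 with OHT in shCDK12 (edgeR adjusted p = 0.0123) was lost without shCDK12 replicate 3 or shCDK12_OHT replicate 2 (up to 0.099), and the interaction of 0.69 ± 0.23 (0.0169) without shNT replicate 2, shCDK12 replicate 3 or shCDK12_OHT replicate 2 (up to 0.0615). MED21, the other hinge protein, rose by 0.32 in shCDK12 against shNT, a call that was lost without shNT replicate 1 or 2 or shCDK12 replicate 2 or 3 (edgeR adjusted p up to 0.187).

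MED4 was spread widely in shNT_OHT. It was at 21.5, 22.2 and 23.1 CPM in shNT, 5.64, 24.7 and 8.99 in shNT_OHT, 20.6, 33.3 and 20.7 in shCDK12 and 24.9, 25.9 and 25.2 in shCDK12_OHT. Its rise of 1.22 ± 0.38 in shCDK12_OHT against shNT_OHT (edgeR adjusted p = 0.0221) was lost without shNT_OHT replicate 3 or any one shCDK12_OHT library (up to 0.0786). MED10 rose by 0.43 ± 0.13 in shCDK12 against shNT (edgeR adjusted p = 0.0056), and its interaction of -0.56 was lost without any of 5 libraries, shNT replicate 1, shNT_OHT replicate 1, shCDK12 replicate 2 and shCDK12_OHT replicates 1 and 3 (up to 0.0629). MED1, which binds nuclear receptors and had the highest counts of the members, passed in no comparison, with log2 fold changes between -0.08 and 0.06. MED19 did not pass in any, and MED31 was at 1.25 to 7.26 CPM and too low for most tests.

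**Figure D4:**
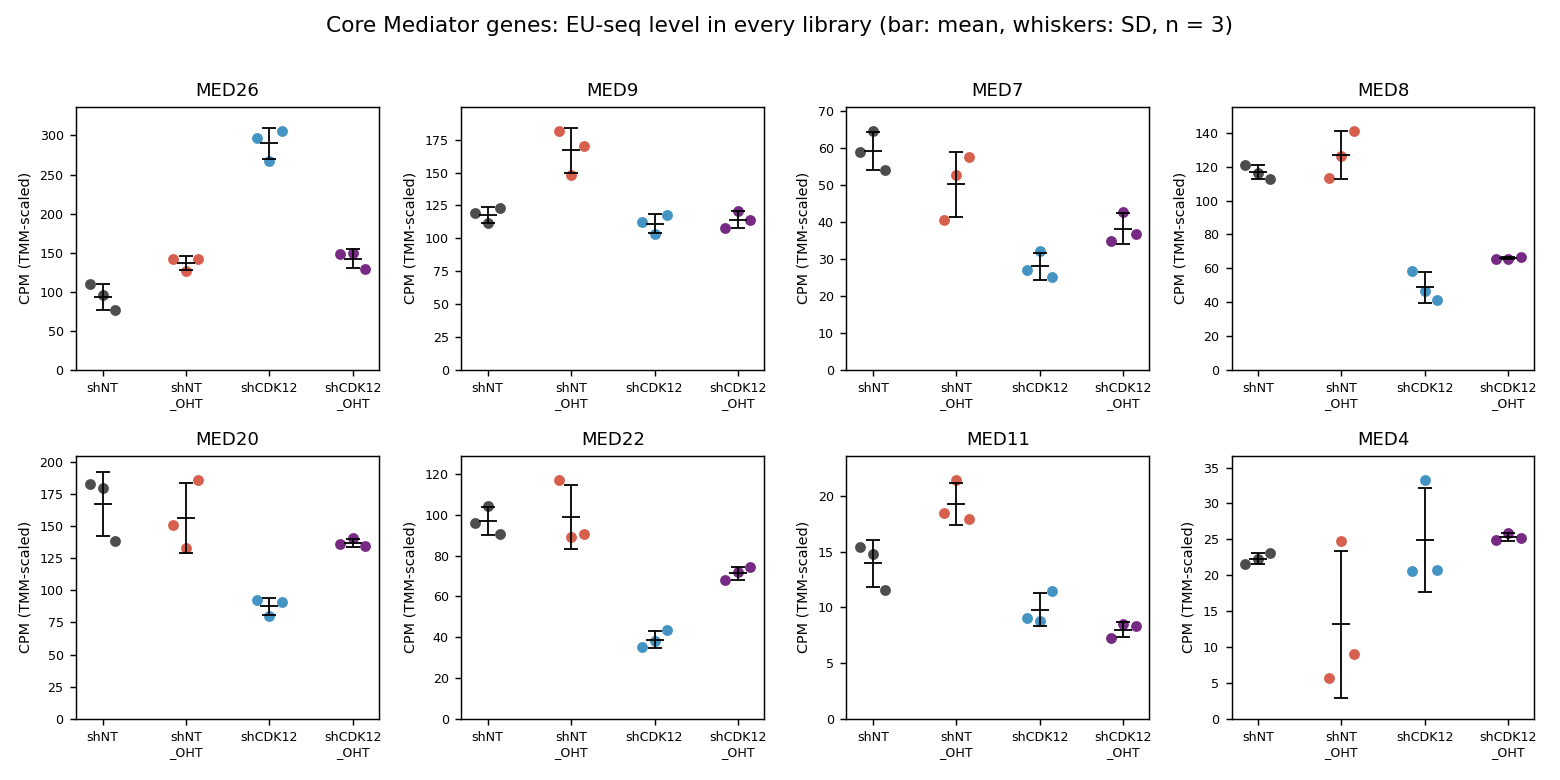
Level of 8 core Mediator genes in each library (points; vertical axis in TMM-scaled CPM from 0, groups on the horizontal axis), with the mean and SD of the 3 libraries. MED8, MED22 and MED20 are lowest in shCDK12, where MED26 is highest (268 to 306), and the 3 shNT_OHT libraries of MED4 spread from 5.64 to 24.7.

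MED14, the scaffold, was at 33.5, 40.0 and 34.6 CPM in shNT, 21.3, 30.5 and 25.8 in shNT_OHT, 27.8, 34.5 and 32.4 in shCDK12 and 37.9, 33.0 and 33.7 in shCDK12_OHT. The shNT_OHT libraries did not overlap those of shNT, but no pair of groups passed. Its interaction of 0.66 ± 0.24 (edgeR adjusted p = 0.0282) was lost without shNT replicate 2, shNT_OHT replicate 1, shCDK12 replicate 1 or shCDK12_OHT replicate 1 (up to 0.0883).

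Among the 7 tail genes, which meet transcription factors, MED29 and MED23 passed the interaction, against 45.2% of all genes. MED29 fell by 1.00 ± 0.14 in shCDK12 against shNT (edgeR adjusted p = 1.7e-06), from 53.1 to 66.2 CPM in shNT to 27.1 to 33.7 in shCDK12, and rose by 0.42 ± 0.12 with OHT in shCDK12 (0.00909). Its interaction of 0.80 was lost without shNT replicate 1 or 2, shNT_OHT replicate 2 or 3, shCDK12 replicate 2 or any one shCDK12_OHT library (edgeR adjusted p up to 0.0985). MED23 was at 68.6, 65.8 and 66.7 CPM in shNT, 37.0, 51.1 and 50.7 in shNT_OHT, 54.0, 69.3 and 67.0 in shCDK12 and 72.9, 72.3 and 76.9 in shCDK12_OHT. Only the shNT_OHT libraries were low. MED23 was 0.71 ± 0.15 higher in shCDK12_OHT than in shNT_OHT (edgeR adjusted p = 0.0033) with an interaction of 0.77 ± 0.20 (0.00379), and both held without each library. Its fall of 0.55 ± 0.18 with OHT in shNT (edgeR adjusted p = 0.0486) was lost without any one shNT library or shNT_OHT replicate 1 or 3 (up to 0.163). That fall was also lost with DESeq2, no filter, the replicate block, the length trend removed and thinning. MED25 rose by 0.55 in shCDK12 against shNT, a call lost without shNT replicate 1 or shCDK12 replicate 3 (edgeR adjusted p up to 0.174). MED25, with 1102 counts over all libraries, overlaps PTOV1-AS1, with 1595. PTOV1-AS1 had a log2 fold change of 0.42 in the same comparison (edgeR adjusted p = 0.0599), and its part in the MED25 counts was not tested. MED15 rose by 0.24 with OHT in shCDK12, a call lost without shCDK12 replicate 3 or shCDK12_OHT replicate 1 or 2 (edgeR adjusted p up to 0.119). MED16, MED24 and MED27 passed in no comparison.

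In Integrator, the cleavage module did not move together. INTS11 is the enzyme that cuts RNA, INTS9 is its inactive partner and INTS4 holds the pair. INTS9 was at 13.8, 14.4 and 9.02 CPM in shNT, 10.3, 15.7 and 12.2 in shNT_OHT, 23.6, 28.2 and 32.9 in shCDK12 and 31.5, 31.6 and 26.3 in shCDK12_OHT. Every library with the CDK12 hairpin was above every shNT and shNT_OHT library. INTS9 rose by 1.13 ± 0.21 (2.19-fold) without OHT and by 1.31 ± 0.22 (2.47-fold) with it (edgeR adjusted p = 4e-05 and 0.000719), with no OHT response that passed and an interaction of 0.16 ± 0.31 (0.704).

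INTS11 was at 54.6, 63.0 and 64.2 CPM in shNT, 91.5, 77.5 and 80.03 in shNT_OHT, 60.2, 76.3 and 69.2 in shCDK12 and 58.0, 57.2 and 51.7 in shCDK12_OHT. The shNT_OHT libraries were the highest of the 12. It fell by 0.56 ± 0.13 in shCDK12_OHT against shNT_OHT (edgeR adjusted p = 0.00516), and its interaction was -0.77 ± 0.19 (0.00205), both kept without each library. The fall of 0.31 ± 0.11 with OHT in shCDK12 (edgeR adjusted p = 0.0225) was lost without shCDK12 replicate 2 or 3 or shCDK12_OHT replicate 2 or 3 (up to 0.0998). INTS11 had a log2 fold change of 0.46 ± 0.16 with OHT in shNT (edgeR adjusted p = 0.0615). That change was called with DESeq2, in the fit of all 12 libraries and without shNT_OHT replicate 2. INTS11 overlaps PUSL1. PUSL1 had log2 fold changes of -1.03 in shCDK12_OHT against shNT_OHT and -0.93 in the interaction (edgeR adjusted p = 0.00391 and 0.0284). INTS4 was at 28.3, 37.9 and 26.1 CPM in shNT, 38.5, 32.2 and 25.5 in shNT_OHT, 25.2, 34.6 and 30.7 in shCDK12 and 35.0, 38.3 and 36.6 in shCDK12_OHT, and passed in no comparison.

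INTS8, which helps to hold the phosphatase, was the member with the largest fall under OHT in shNT. INTS8 was at 16.6, 13.9 and 21.6 CPM in shNT, 7.52, 7.42 and 5.22 in shNT_OHT, 9.03, 11.2 and 8.51 in shCDK12 and 7.88, 11.8 and 8.34 in shCDK12_OHT. The shNT libraries were above all others, and all shNT_OHT libraries were below the rest. It fell by 1.37 ± 0.34 with OHT in shNT (edgeR adjusted p = 0.0126), a call lost without shNT replicate 3 or shNT_OHT replicate 3 (up to 0.0664), and by 0.79 ± 0.25 in shCDK12 against shNT (0.00728). Its interaction was 1.32 ± 0.39 (edgeR adjusted p = 0.0091). INTS8 had 656 counts over all libraries and overlaps CCNE2, a cyclin of the entry into S phase with 3002 counts. CCNE2 had log2 fold changes close to those of INTS8 with OHT in shNT (-1.32) and in the interaction (1.30) and one of 0.10 in shCDK12 against shNT, and its part in the INTS8 counts was not tested.

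INTS3 also serves in a complex that binds single-stranded DNA, and INTS6 contacts the phosphatase. INTS3 was at 101, 85.1 and 83.2 CPM in shNT, 90.2, 77.5 and 70.8 in shNT_OHT, 54.2, 53.0 and 49.8 in shCDK12 and 69.3, 69.4 and 58.8 in shCDK12_OHT. The shCDK12 libraries were below all others. INTS3 fell by 0.79 ± 0.12 in shCDK12 against shNT (edgeR adjusted p = 5.05e-06) and rose by 0.34 ± 0.10 with OHT in shCDK12 (0.0113), the latter lost without shCDK12_OHT replicate 1 or 2 (up to 0.0756). INTS6 was at 62.3, 58.4 and 66.2 CPM in shNT, 61.4, 66.0 and 65.8 in shNT_OHT, 46.6, 74.4 and 54.2 in shCDK12 and 44.1, 37.6 and 42.8 in shCDK12_OHT. The shCDK12_OHT libraries were the lowest of the 12. It fell by 0.61 ± 0.14 against shNT_OHT (edgeR adjusted p = 0.00448) and by 0.52 ± 0.14 against shCDK12 (0.0052).

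Of the arm genes, INTS14 fell by 0.66 ± 0.13 in shCDK12 against shNT (edgeR adjusted p = 7.09e-05), from 69.7 to 83.9 CPM in shNT to 45.2 to 53.7 in shCDK12. INTS10 was at 26.7, 24.2 and 26.1 CPM in shNT, 24.4, 21.4 and 50.5 in shNT_OHT, 36.4, 43.8 and 35.9 in shCDK12 and 30.6, 31.3 and 27.2 in shCDK12_OHT. It rose by 0.61 ± 0.16 in shCDK12 against shNT (edgeR adjusted p = 0.00216). The interaction of -0.78 ± 0.31 (edgeR adjusted p = 0.0486) rested on shNT_OHT replicate 3, the library at 50.5, without which it was -0.25 (0.422), and was also lost without each other library except shNT_OHT replicates 1 and 2. OHT in shCDK12 gave -0.39 ± 0.13 (edgeR adjusted p = 0.0175), lost without shCDK12 replicate 2 or shCDK12_OHT replicate 3 (up to 0.0773). INTS15 rose by 0.31 in shCDK12 against shNT, lost without shNT replicate 2 or shCDK12 replicate 3 (edgeR adjusted p up to 0.0682), and INTS13 passed in no comparison.

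Of the other backbone genes, INTS7 fell by 0.31 in shCDK12 against shNT, a call lost without shNT replicate 1 or 3 or shCDK12 replicate 1 or 3 (edgeR adjusted p up to 0.175), and INTS2 rose by 0.45 in shCDK12_OHT against shNT_OHT, a call lost without any library but shNT_OHT replicate 2 (up to 0.149). The INTS7 call was lost in 11 of 14 alternatives, among them DESeq2, upper-quartile scaling, no filter, the length trend removed, thinning and all groups in 1 fit. The INTS2 call was lost in 10 of 14, among them DESeq2, the replicate block, the length trend removed and thinning. INTS1, the largest subunit, was at 62.6 to 84.9 CPM in all 12 libraries with log2 fold changes between -0.04 and 0.06. INTS12 and INTS5 passed in no comparison as tested. INTS5 had a log2 fold change of -0.38 ± 0.16 in shCDK12_OHT against shNT_OHT (edgeR adjusted p = 0.0757) and 0.41 ± 0.15 with OHT in shNT (0.0733). The former was called with DESeq2, and both were called in the fit of all 12 libraries and, at -0.51 and 0.54, without shNT_OHT replicate 2.

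**Figure D5:**
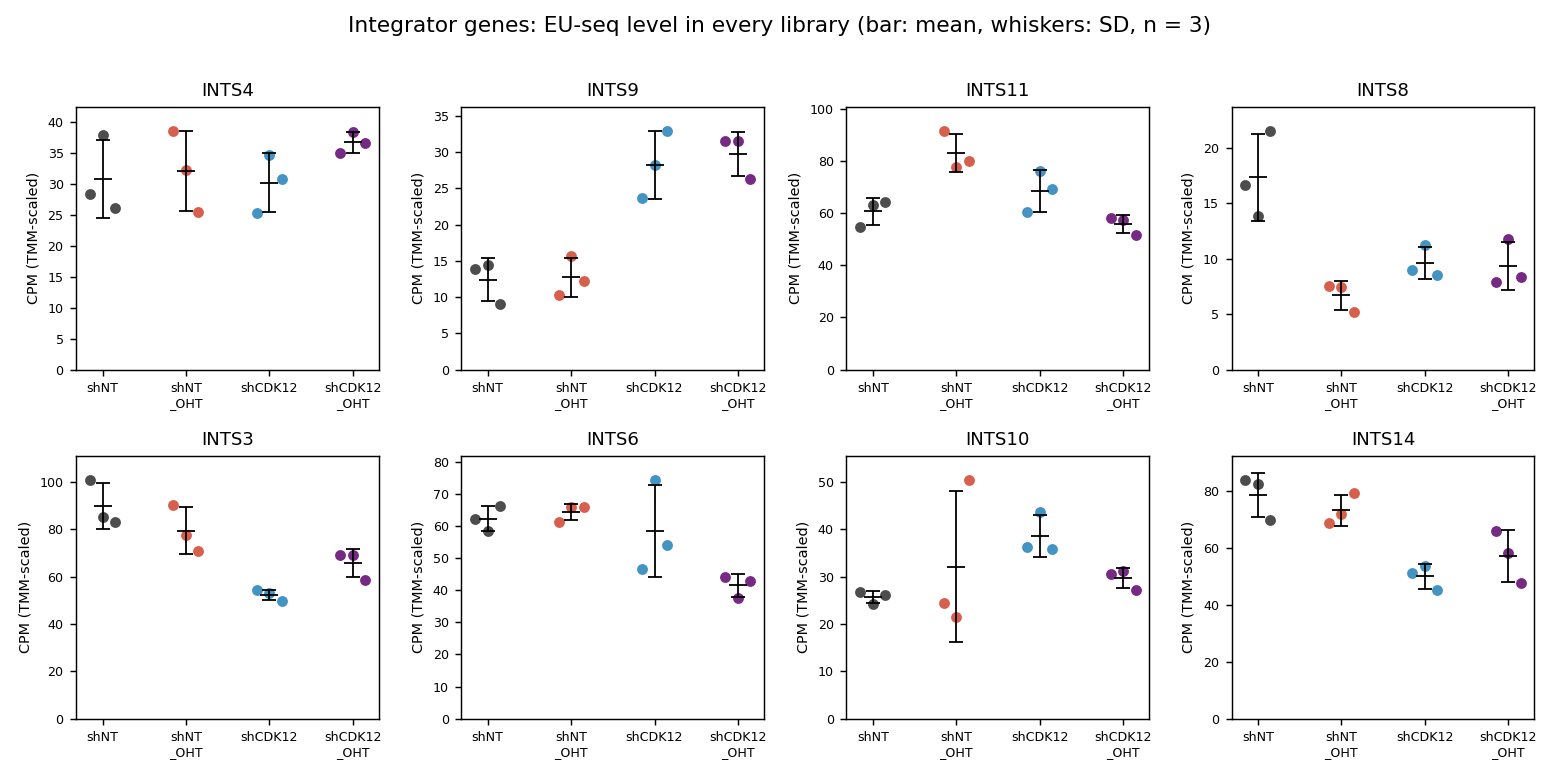
Level of 8 Integrator genes in each library (points; vertical axis in TMM-scaled CPM from 0, groups on the horizontal axis), with the mean and SD of the 3 libraries. INTS9 is at 23.6 CPM or more in every library with the CDK12 hairpin and at 15.7 or less in the others, while INTS4 stays between 25.2 and 38.5 in all 12 libraries.

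The genes that work beside the members were counted in the same way. In the order OHT in shNT, shCDK12 against shNT, shCDK12_OHT against shNT_OHT, OHT in shCDK12 and interaction, 9.05, 29.6, 23.8, 27.5 and 25.6% of all genes were higher and 8.29, 32.4, 21.6, 21.5 and 19.6% lower, and the counts below were not tested against these shares. Of 12 subunits of RNA polymerase II, 5 rose with OHT in shNT (POLR2F most, 1.13), whereas 6 fell with OHT in shCDK12 (POLR2E most, -0.84), with edgeR and with DESeq2, and 0 had an unadjusted p under 0.05 in the other direction in either. In the hairpin comparisons 5 rose and 1 fell without OHT (POLR2F 1.51, POLR2L -0.66), and 1 rose and 5 fell with it (POLR2A 1.50, POLR2L -1.85). The interaction passed for 1 higher (POLR2B, 0.46) and 5 lower (POLR2F, -1.75). Initiation factors, of which 29 or 30 were tested, went both ways in every comparison, with 2 higher and 1 lower for OHT in shNT (ERCC2 1.02, TAF1 -0.54), 7 and 9 for shCDK12 against shNT (GTF2A2 1.78, TAF10 -0.78), 7 and 5 with OHT (GTF2H5 1.24, TAF10 -1.44), 5 and 3 for OHT in shCDK12 (GTF2F2 1.09, GTF2A2 -0.83) and 6 and 2 for the interaction (TAF1 1.02, GTF2A2 -1.45).

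Of 7 partners of Integrator, 0 passed with edgeR or DESeq2 and 2 had an unadjusted p under 0.05 with OHT in shNT. In shCDK12 against shNT 4 rose and 2 fell (INIP 0.58, NABP1 -1.20), with OHT 3 rose and 2 fell (INTS6L 1.30, NABP1 -1.73), with OHT in shCDK12 1 rose and 2 fell (INTS6L 0.71, NABP1 -0.34), and the interaction passed for 1 higher and 2 lower (INTS6L 1.60, NABP1 -0.55). INTS6 fell in both comparisons of shCDK12_OHT where INTS6L, its paralog, rose. Whether reads of shared sequence were split between them was not tested. Of 10 factors of small nuclear RNA promoters 0 passed with OHT in shNT with edgeR and 2 with DESeq2, and 3 had an unadjusted p under 0.05. Of these factors 3 rose and 2 fell in shCDK12 (SNAPC3 0.51, SNAPC5 -0.80), 1 rose and 2 fell with OHT (SNAPC3 0.91, SNAPC4 -1.17), and 1 fell in each of the other comparisons (SNAPC4, -0.55 and -1.30).

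With OHT in shNT, the Pearson correlation between log2 fold change and log10 of the gene span was -0.29 over 10251 genes of the table and -0.17 over 46 members. In shCDK12 against shNT it was -0.05 over all genes and 0.28 over 47 members, and in shCDK12_OHT against shNT_OHT 0.21 and 0.36. With OHT in shCDK12 it was 0.12 over all genes and -0.16 over 48 members, and in the interaction 0.21 and 0.03 over 47. All genes and members thus had opposite signs in shCDK12 against shNT and with OHT in shCDK12. The median span was 28555 bp in the members and 30383 bp in the genes tested for OHT in shNT. Genes share libraries and depth, so these values are descriptions.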

How the data were processed

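RNA labelled with EU was sequenced from 12 libraries in 4 groups of 3. The authors deposited 1 table of raw counts per gene, not normalised, for 23434 Entrez identifiers. The submitters' processing notes name STAR 2.7.5c, featureCounts 1.4.5-p1 and hg19, and the annotation and the use of strand are not given in the sources used here. Symbols came from RefSeq on GRCh38.p14 for 23284 identifiers, and 150 without a symbol stayed in the tests. RefSeq also gave gene spans, overlaps and promoter windows, so these are on another build than the counts.

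Genes with a mean normalised count above 32 over the libraries of a comparison were tested with edgeR 4.0.16 (TMM, quasi-likelihood test, R 4.3.3), with Benjamini-Hochberg adjustment over all genes tested and a threshold of 0.05. Pairs of groups were fitted on 6 libraries, and the interaction, the OHT response in shCDK12 minus that in shNT, on 12. The code was tested on simulated data. Values in every library were given for the kinase and cleavage modules, MED14 and the 3 members with the largest called change each way in each comparison. MED23 and INTS3 were added after their values were seen. Alternatives were DESeq2 1.42.0, upper-quartile scaling, no filter, a replicate block, removal of the trend with gene length, thinning to the smallest library, all groups in 1 fit, and the removal of single libraries. The members and lists were chosen with earlier results of these data known. Values of 1 gene that overlaps a member are not reported here. Depth of 1251695 to 10447836 counts limits low genes most.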

Additional observations from a re-analysis of the deposited data

Results flagged for a closer look

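The OHT response differed between the hairpins, by the interaction test over all 12 libraries, in 22 of the 47 members tested, and each value here is the log2 response in shCDK12 minus that in shNT. The difference was lower in MED26 (-1.56), MED12L (-1.44), INTS10 (-0.78), INTS11 (-0.77), INTS6 (-0.56), MED10 (-0.56), INTS15 (-0.48) and MED9 (-0.47). It was higher in INTS3 (0.51), MED13L (0.61), MED14 (0.66), MED7 (0.69), MED20 (0.74), MED12 (0.75), MED23 (0.77), MED13 (0.79), MED29 (0.80), MED22 (0.84), MED18 (0.85), CCNC (1.15), INTS8 (1.32) and CDK19 (1.73). The share of 46.8% is near the 45.2% of all genes and is no result about the members. CDK12 itself had an interaction of -0.83 (edgeR adjusted p = 4.55e-05).

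Of these 22, 12 kept their call without each library in turn (MED26, MED12L, INTS11, MED13L, MED20, MED23, MED13, MED22, MED18, CCNC, INTS8 and CDK19), and 10 lost it without at least 1. MED29 lost it without shNT replicate 1 or 2, shNT_OHT replicate 2 or 3, shCDK12 replicate 2 or any shCDK12_OHT library (0.58 to 0.81, edgeR adjusted p 0.052 to 0.0985). INTS6 lost it without shNT replicate 1 or 2, shNT_OHT replicate 2 or 3, shCDK12 replicate 2 or any shCDK12_OHT library (-0.61 to -0.36, up to 0.153). INTS15 lost it without any library but shNT_OHT replicates 1 and 2 and shCDK12 replicate 2 (-0.51 to -0.35, up to 0.138), and INTS3 without shNT replicate 1, shNT_OHT replicate 3, shCDK12 replicate 2 or 3 or shCDK12_OHT replicate 1 or 2 (0.42 to 0.50, up to 0.0976).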

How the results depend on the processing

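Called members that kept their call under every alternative in which they were tested numbered 0 of 7 for OHT in shNT, 16 of 23 for shCDK12 against shNT, 8 of 14 for shCDK12_OHT against shNT_OHT, 6 of 18 for OHT in shCDK12 and 11 of 22 for the interaction. Thinning every library to the smallest gave 3, 14, 8, 8 and 11 called members in that order, and a second draw, chosen after seeing the data, 2, 14, 7, 10 and 11, with 34 to 39 members left to test. One fit of all 12 libraries gave 15 called members for OHT in shNT. Leaving out 1 library gave 0 to 12, 18 to 25, 10 to 20, 14 to 20 and 14 to 24, the last lowest without shCDK12_OHT replicate 1. MED7 reversed in the first thinned draw, to -0.16 for OHT in shCDK12 (edgeR adjusted p = 0.593) and -0.0299 for the interaction (0.944), and the second draw gave 0.05 and 0.40. The cause of these moves was not tested, beyond the fewer genes and counts that thinning leaves. Removing the length trend gave 3 higher and 2 lower for OHT in shNT and 7 higher and 11 lower for shCDK12_OHT against shNT_OHT. Deviations from the group means correlated across genes at -0.079 to 0.090 for libraries of the same number and -0.105 to 0.066 for different numbers. With 3 libraries a group, these values cannot decide whether replicate numbers pair the libraries. With the replicate block 7, 24, 13, 18 and 22 members were called. Shares of all genes called under these alternatives are not given here, so the counts are no result about the members. Depth limits low members most and the unstated use of strand overlapping members, while the lack of a mouse scaling bears on every member.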
